A study of Homo sapiens with 6 samples.

Results

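To describe the ion channels of the J82 bladder cancer line, all protein-coding genes of the transient receptor potential (TRP) family and all genes with a KCN symbol, the potassium channel subunits, were taken from the count table by symbol. The rule found 117 genes among the 57820 rows, 23 TRP channel genes and 94 potassium channel genes. The rule also brought in MCOLN1 and PKD2, which belong to the wider TRP superfamily. The rule uses no expression value, but the set was chosen with earlier results of these data known.

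J82 is an established human bladder cancer cell line, grown here in DMEM with fetal bovine serum. The control group (CTRL) held 3 RNA-seq libraries of cells with control genotype, which per the methods carried the vector as a control, and the knockout group (FOXC1 KO) held 3 libraries of cells in which lentiCRISPR v2 had been used to knock out FOXC1, a forkhead transcription factor. No source used here says whether the 3 libraries of a group came from separate cultures or clones, so p-values measure the spread between these libraries, which may be technical. In a culture of this kind, fewer cells expressing a gene and less RNA per cell cannot be told apart.

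TRP channels are cation channels that open to ligands, lipids, temperature or stretch, and most of them let calcium in. Potassium channels let potassium leave the cell and thereby set the membrane potential and the driving force for calcium entry. Their pore subunits fall into voltage-gated, calcium- or sodium-activated, inward-rectifier and two-pore-domain (K2P) classes, and accessory subunits alter their gating and trafficking. In the bladder, TRP channels are known for roles in stretch sensing by the urothelium, and large-conductance calcium-activated potassium channels for relaxing the muscle wall.

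The libraries held between 18408134 and 25350908 assigned read counts. The correlation of log expression was at least 0.996 between libraries of a group and at most 0.989 between groups. FOXC1 itself had 413, 412 and 490 counts in the CTRL libraries and 443, 560 and 497 in the FOXC1 KO libraries. As CPM, read counts scaled to a common library size, this was 18.2 ± 1.21 against 22.5 ± 1.5 (SD, n = 3 each), a log2FC (log2 fold change, FOXC1 KO over CTRL) of 0.30 ± 0.0914 (SE, adjusted p = 0.0127, edgeR). Leaving out CTRL replicate 2 gave 0.25 with an adjusted p of 0.0827, and leaving out KO replicate 1 gave 0.25 with 0.0784. The FOXC1 transcript was thus not lower in the knockout group, while per the labels and methods the loss of the protein had been checked by western blot. The group names below are therefore those of the labels, and directions are those of the libraries labelled FOXC1 KO against those labelled CTRL. Of 14 urothelial and epithelial markers, 6 were tested and all 6 fell (KRT8, KRT18, KRT19, EPCAM, GATA3 and PPARG), with a summed level of 2269 to 2894 CPM in CTRL and 1599 to 1742 CPM in FOXC1 KO. UPK3A was at 0, and UPK1A, UPK1B, UPK2, KRT5, KRT20 and CDH1 had at most 5 counts in any library. Of 17 neuron, muscle, leukocyte and endothelial markers, 6 were tested and 3 rose (SNAP25, CD14 and CDH5), with a summed level of 17.3 to 19.3 CPM against 24.1 to 27.0 CPM, while MYOD1, MYOG and CD3E were among those at 0. Over all 15647 genes tested 8.39% fell and 7.57% rose, by the thresholds given below. The part of these marker differences in the channel results was not tested.

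Most of the 117 channel genes were silent or nearly so. In all 6 libraries 22 had 0 counts, and 55 had some reads but stayed under the filter on low counts, with at most 15 counts in any library and at most 3 in every library for 35 of them. The remaining 40 were tested, of which 32 averaged at least 1 CPM. The 0-count genes included 6 of the 8 Kv1 pore genes (KCNA1, KCNA2, KCNA3, KCNA4, KCNA5 and KCNA10), which carry delayed-rectifier and A-type currents in neurons and muscle, and KCNJ2, the classical inward rectifier of muscle. They also included TRPV6, the epithelial calcium uptake channel, TRPM5, the taste-cell cation channel, TRPM1 and TRPV3. None of the 8 Kv1 and none of the 5 Kv7 pore genes reached the filter, and no library held over 5 counts for any of them. A count of 0 allows up to 3 counts in a library, by counting error only.

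**Figure D1:**
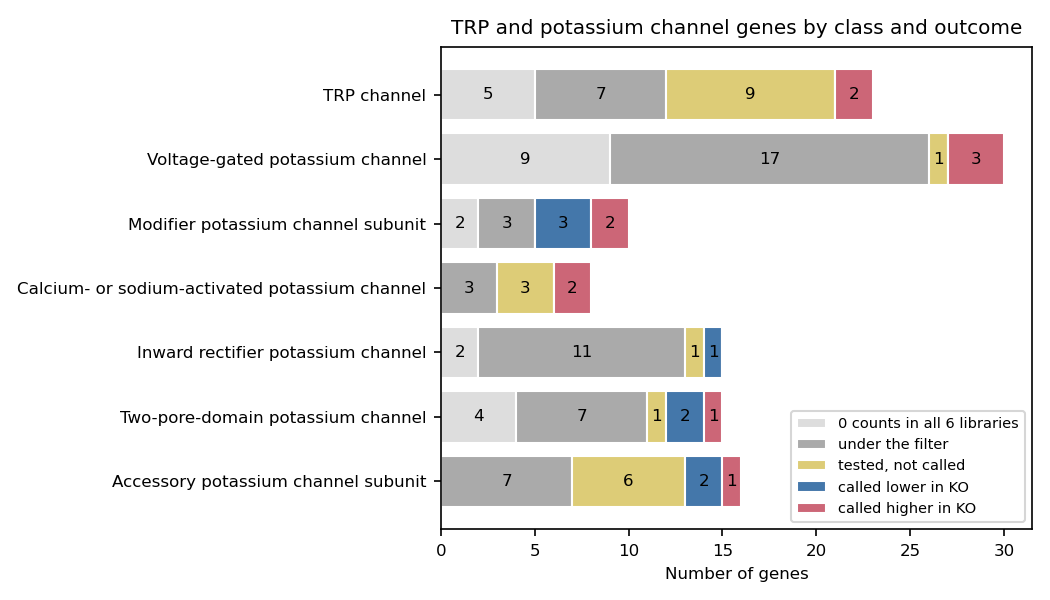
Number of member genes (x axis) in each of 7 classes (y axis), split by colour into those at 0 counts in all libraries, those with reads but under the filter, those tested and not called, and those called lower or higher in FOXC1 KO. Of the 10 voltage-gated modifier genes, 5 were tested and all 5 were called, against 16.0% of all genes tested. The 30 voltage-gated pore genes gave 4 tested genes.

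To compare levels between genes, counts were scaled per transcript length and library (TPM). PKD2, the polycystin-2 cation channel of cilia and endoplasmic reticulum, stood highest in CTRL at 31.6 ± 3.49 TPM (SD, n = 3). KCNAB2, the potassium channel beta 2 subunit, followed at 29.97 ± 2.24 TPM and KCNS3, the Kv9.3 modifier subunit, at 28.0 ± 1.25 TPM. Neighbours among these first genes were closer than their spread. TRPM7, a magnesium and calcium channel fused to a kinase domain, stood at 21.4 ± 2.16 TPM and MCOLN1, the lysosomal calcium release channel, at 21.6 ± 1.76 TPM in CTRL, with no separation between them. KCNMA1, the pore of the large-conductance (BK) channel, had 17.4 ± 0.356 TPM and KCNK1, the K2P channel TWIK-1, 16.8 ± 1.35 TPM. KCNN4, the intermediate-conductance calcium-activated channel, had 14.0 ± 0.772 TPM, TRPC1 10.4 ± 0.718 TPM and TRPV2 7.57 ± 1.14 TPM. In FOXC1 KO the same 10 genes ranged from TRPV2 at 10.7 ± 0.598 TPM to PKD2 at 25.9 ± 1.53 TPM, and KCNMA1 at 21.2 ± 0.875 TPM and KCNAB2 at 21.2 ± 1.60 TPM could not be separated. The choice of transcript length moved the number of genes at 1 TPM or more from 24 to 30.

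**Figure D2:**
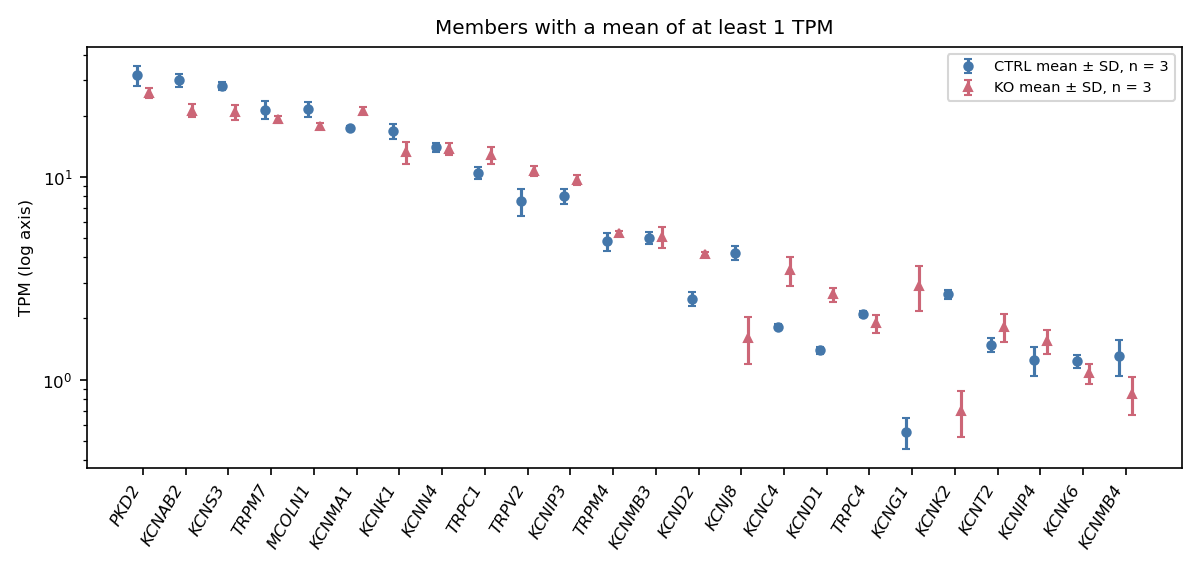
Length-scaled level (TPM, log axis) of the 24 member genes that averaged at least 1 TPM, as mean ± SD over the 3 libraries of CTRL and of FOXC1 KO. PKD2, KCNAB2 and KCNS3 lead in CTRL at 28.0 to 31.6 TPM, and all 3 are lower in FOXC1 KO.

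Among the 40 tested genes 8 fell (20%) and 11 rose (27.5%) in FOXC1 KO, called where the adjusted p was below 0.05 and the groups differed by more than 1.3-fold. Over all 15647 genes tested, 8.39% fell, 7.57% rose, and 16.0% did either, against 47.5% of the channel genes. Since the set was chosen with earlier results of these data known, these shares are a description only. All libraries of 1 group lay above all of the other for 28 of the 40 (70%), against 41.3% of all genes tested. The median absolute log2FC was 0.46 for the channel genes and 0.18 for all genes tested. The signed median was 0.12 for the channel genes and near 0 for all genes, and it turned to -0.06 when only genes with a mean of at least 50 counts were kept. For 6 of the 40, all libraries of only 1 group were over the filter level, and 3 of these were called (TRPM2, KCNU1 and KCNN2). Such a gene passed the filter through the group in which it was higher. Among the 32 that averaged at least 1 CPM, 7 fell and 8 rose. The tested channel genes stood lower than tested genes at large. Those with a promoter entry, described below, had a median of 2.71 CPM where CG-poor and 6.09 CPM where CG-rich. All tested genes with such an entry had 5.80 and 33.3 CPM. The part of level in these shares and medians was not tested.

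Calls past the fold threshold were found mainly among the potassium channel genes. Of 29 tested, 8 fell and 9 rose (58.6%), with a median absolute log2FC of 0.65. Of 11 tested TRP genes none fell and 2 rose, TRPM2 and TRPV2, with a median absolute log2FC of 0.31. That 18.2% was near the 16.0% called among all genes tested. By the adjusted p alone, 2 more TRP genes were lower and 1 was higher, against 0 and 1 potassium channel genes. The groups did not overlap in 81.8% of the tested TRP genes and 65.5% of the tested potassium channel genes, against 41.3% of all genes tested. No test of the difference between the families was run. By edgeR, 28 of the 40 had an unadjusted p under 0.05. The share over all genes tested is not given here, so no excess can be read from that count.

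**Figure D3:**
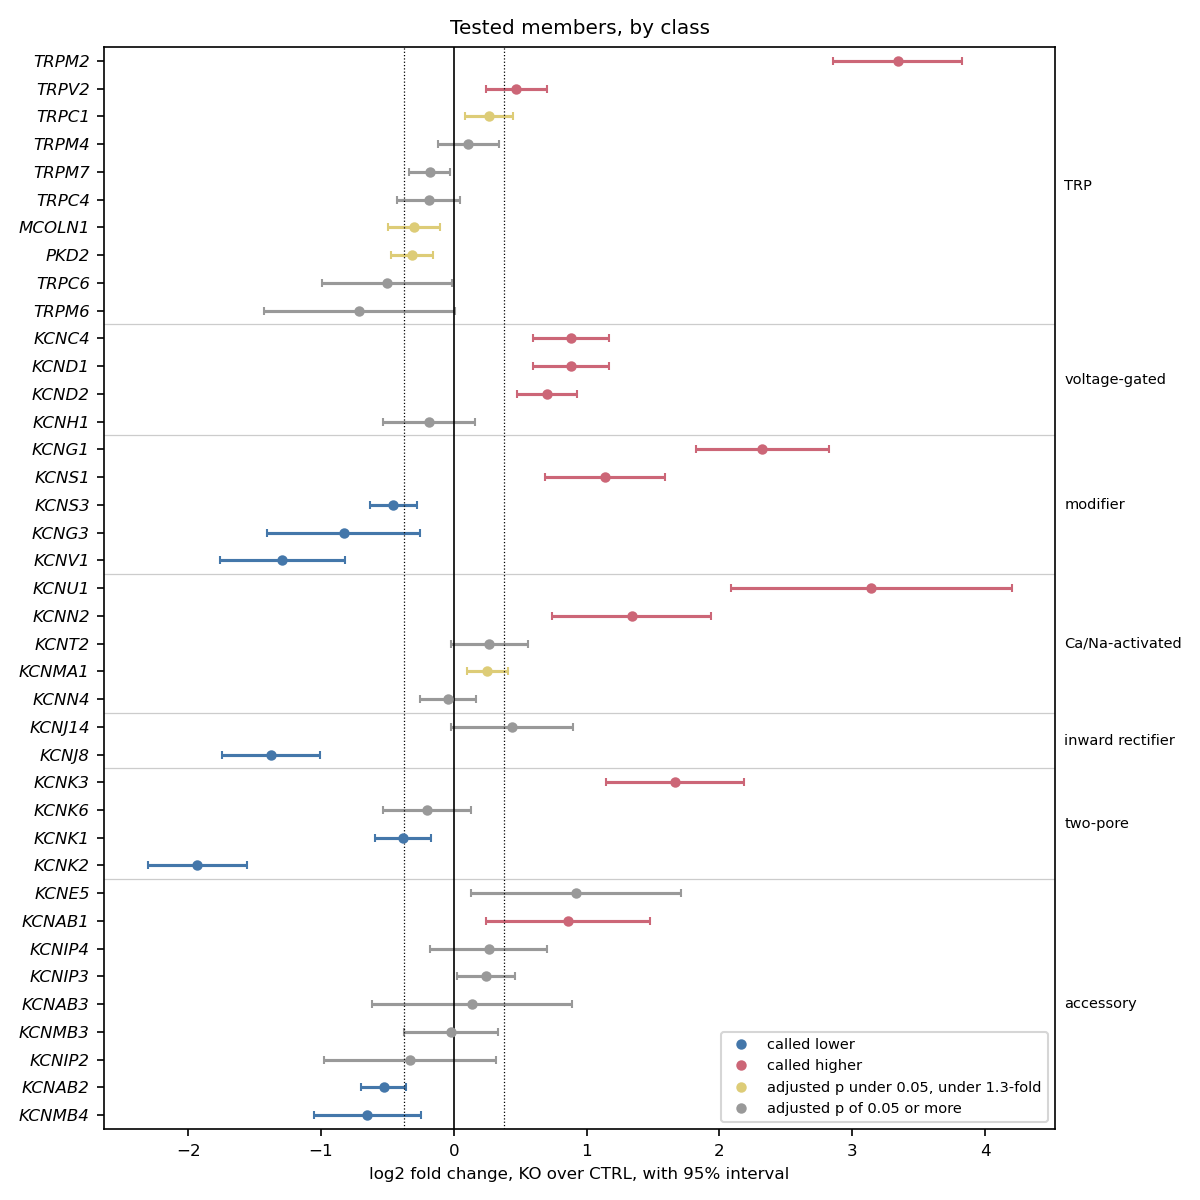
Log2 fold change (FOXC1 KO over CTRL, x axis) with its 95% interval for all but 1 of the 40 tested member genes, grouped by class, with dotted lines at a change of 1.3-fold in either direction. TRPM2 at 3.34 and KCNU1 at 3.14 lie farthest to the right and KCNK2 at -1.93 farthest to the left.

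TRPM2, a calcium-permeable channel opened by intracellular ADP-ribose and known for responding to oxidative stress, showed the steepest rise of the tested channel genes. Its level was 0.490, 0.491 and 0.314 CPM in the CTRL libraries, from 11, 12 and 8 counts. In FOXC1 KO it was 5.16, 4.64 and 3.48 CPM, from 95, 117 and 82 counts. Every FOXC1 KO library thus lay well above every CTRL library. The log2FC was 3.34 ± 0.239 (SE, adjusted p = 5.28e-12, edgeR), which is 10.1-fold with a 95% interval of 2.85 to 3.83 on the log2 scale. The gene (ENSG00000142185.12) spans chr21:45770046-45862964 on the plus strand of GRCh37. TRPV2, a cation channel that responds to stretch and noxious heat, had 11.6, 8.43 and 8.92 CPM in CTRL and 13.6, 14.0 and 12.5 CPM in FOXC1 KO. The groups did not overlap, although CTRL replicate 1 came close to the lowest FOXC1 KO library. Its log2FC was 0.47 ± 0.114 (SE, adjusted p = 0.00206).

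The abundant TRP genes moved little. PKD2 had 66.8, 74.4 and 79.3 CPM in CTRL and 59.4, 56.5 and 61.6 CPM in FOXC1 KO, with no overlap and a log2FC of -0.31 ± 0.0778 (SE, adjusted p = 0.00269), under the fold threshold. MCOLN1 had a log2FC of -0.30 (adjusted p = 0.0181) and TRPC1, a receptor- and store-linked cation channel subunit, one of 0.26 (adjusted p = 0.0251), both also under the fold threshold. MCOLN1 lost its adjusted p without CTRL replicate 1 (0.0580), KO replicate 1 (0.0646) or KO replicate 3 (0.0567). TRPC1 lost it without CTRL replicate 1, CTRL replicate 3, KO replicate 1 or KO replicate 3, at 0.0538 to 0.117. TRPM7 had 101 ± 7.95 CPM in CTRL and 89.4 ± 2.97 CPM in FOXC1 KO (SD, n = 3), with a log2FC of -0.18 and a 95% interval of -0.33 to -0.03 (adjusted p = 0.0627). The diacylglycerol-gated TRPC6, far less abundant at a mean of 1.22 CPM, had a log2FC of -0.50 (adjusted p = 0.114). Its interval was -0.99 to -0.02. TRPM4, a calcium-activated channel for monovalent cations, had a log2FC of 0.11 with an interval of -0.12 to 0.34. TRPC4 and TRPM6, the latter an epithelial magnesium channel, also did not pass, with log2FCs of -0.19 and -0.71. TRPM6 averaged only 0.602 CPM, and its interval was wide, at -1.43 to 0.006.

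Voltage-gated pore genes that make rapidly inactivating (A-type) currents rose. KCND2 and KCND1 encode Kv4.2 and Kv4.1, and KCNC4 encodes Kv3.4. KCND2 had 6.91, 7.17 and 6.01 CPM in CTRL and 10.9, 11.2 and 10.6 CPM in FOXC1 KO. The log2FC was 0.70 ± 0.111 (SE, adjusted p = 1.35e-05). KCND1 had 3.12, 2.87 and 3.07 CPM in CTRL and 5.65, 5.99 and 5.06 CPM in FOXC1 KO. It thus stood 1.84-fold higher, with a log2FC of 0.88 ± 0.141 (SE, adjusted p = 1.53e-05). KCNC4 had 3.57, 3.32 and 3.46 CPM in CTRL and 7.498, 6.03 and 5.74 CPM in FOXC1 KO, a log2FC of 0.88 ± 0.139 (SE, adjusted p = 1.3e-05). In these 3 genes the lowest FOXC1 KO library exceeded the highest CTRL library by more than the range within CTRL. KCNH1, the EAG1 channel often found in tumour cells, was the fourth tested pore gene and did not pass, with a log2FC of -0.18 (adjusted p = 0.448). The calcium-binding KChIP subunits that partner Kv4 pores did not pass either, with log2FCs of 0.24 for KCNIP3, 0.26 for KCNIP4 and -0.33 for KCNIP2. The other known Kv4 partners DPP6 and DPP10, looked up after the values were seen, had at most 2 counts in any library. The summed level of the 30 voltage-gated pore genes was 17.5 to 19.5 CPM in CTRL and 25.5 to 29.4 CPM in FOXC1 KO.

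All 5 tested modifier subunits passed, in both directions, against 16.0% called among all genes tested. With so few genes, in a set chosen with earlier results known, this is a description only. These Kv6, Kv8 and Kv9 proteins form no channel alone and alter Kv2 pores with which they assemble. KCNG1 (Kv6.1) had 0.490, 0.655 and 0.511 CPM in CTRL and 3.59, 2.46 and 2.46 CPM in FOXC1 KO. The groups lay far apart, with a log2FC of 2.32 ± 0.245 (SE, adjusted p = 1.54e-08). KCNS1 (Kv9.1) had 0.847, 0.860 and 1.06 CPM in CTRL and 2.28, 1.94 and 1.95 CPM in FOXC1 KO, a log2FC of 1.14 ± 0.220 (SE, adjusted p = 0.000195). KCNS3 (Kv9.3), the one abundant modifier, moved the other way. It had 29.995, 29.1 and 30.9 CPM in CTRL and 21.6, 20.3 and 23.6 CPM in FOXC1 KO, a log2FC of -0.46 ± 0.0865 (SE, adjusted p = 0.000163). KCNV1 (Kv8.1) had 3.12, 2.58 and 2.99 CPM in CTRL and 1.304, 0.634 and 1.66 CPM in FOXC1 KO, a log2FC of -1.29 ± 0.229 (SE, adjusted p = 7.31e-05). KO replicate 2 was the lowest of its libraries. KCNG3 (Kv6.3) had 0.981, 0.942 and 1.26 CPM in CTRL and 0.652, 0.515 and 0.637 CPM in FOXC1 KO, a log2FC of -0.83 ± 0.283 (SE, adjusted p = 0.0263). This call rested on 12 to 32 counts a library and was lost without CTRL replicate 3 (adjusted p = 0.158), KO replicate 2 (0.109) or KO replicate 3 (0.0538).

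KCNB2 (Kv2.2), a pore that such subunits modify, had 1 count in 1 FOXC1 KO library and 0 in the others. The modifier genes together summed to 34.4 to 36.9 CPM in CTRL and 26.0 to 30.5 CPM in FOXC1 KO, most of it KCNS3.

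**Figure D4:**
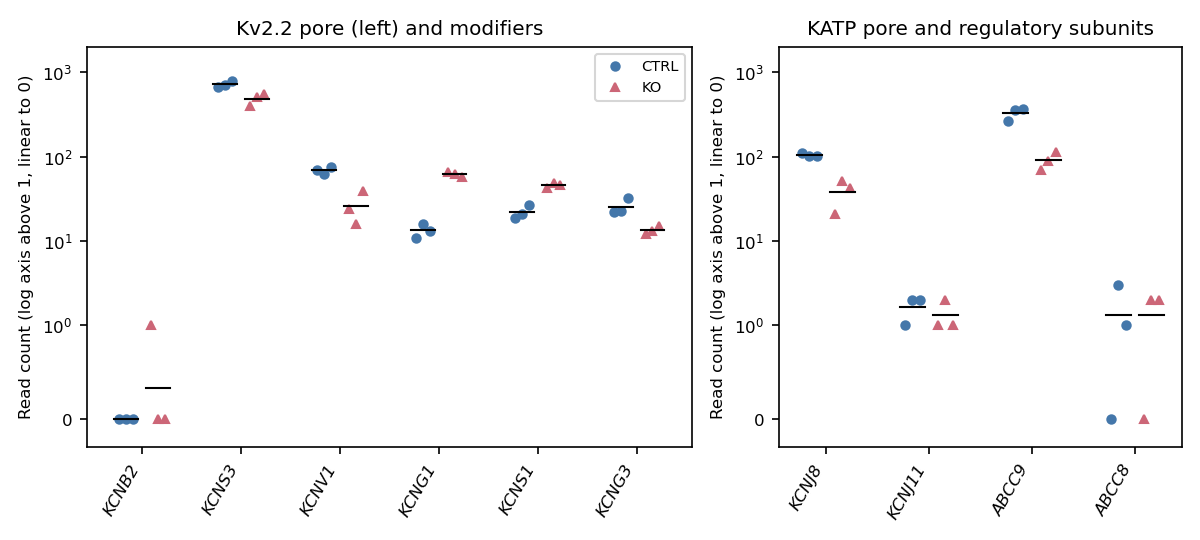
Read counts per library in CTRL and FOXC1 KO for subunits that assemble with each other, the Kv2.2 pore KCNB2 beside the modifier genes, and the KATP pores KCNJ8 and KCNJ11 beside the sulfonylurea receptors ABCC9 and ABCC8. KCNB2 has at most 1 count in any library, while KCNS3 has 398 to 785.

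Calcium- and sodium-activated channels were led by KCNMA1. It had 51.6, 48.4 and 49.7 CPM in CTRL and 61.0, 59.2 and 58.2 CPM in FOXC1 KO. The groups did not overlap, but the log2FC of 0.25 ± 0.0742 (SE, adjusted p = 0.0103) stayed under the fold threshold, and the adjusted p was lost without CTRL replicate 2 (0.0557) or CTRL replicate 3 (0.0537). KCNMB4, the beta 4 subunit that slows the gating of this channel, fell from 2.76, 3.40 and 2.28 CPM to 1.79, 1.43 and 2.17 CPM. Its log2FC of -0.65 ± 0.197 (SE, adjusted p = 0.0128) was lost without CTRL replicate 2 (adjusted p = 0.0952) or KO replicate 2 (0.102). KCNMB3, the beta 3 subunit, had a log2FC of -0.02 with an interval of -0.37 to 0.33. LRRC26, a gamma subunit of this channel looked up after the values were seen, had at most 5 counts in any library. KCNN2, a small-conductance calcium-activated channel, had 0.669, 0.491 and 0.314 CPM in CTRL and 1.14, 1.31 and 1.23 CPM in FOXC1 KO, a log2FC of 1.34 ± 0.294 (SE, adjusted p = 0.000833). KCNN4, of the same family and far more abundant, had 12.5 ± 0.963 CPM in CTRL and 12.1 ± 1.07 CPM in FOXC1 KO (SD, n = 3), with a log2FC of -0.04 and an interval of -0.26 to 0.17. KCNU1, the SLO3 channel known from sperm, was grouped here with KCNMA1 by family, not by what opens it. It had 1, 1 and 3 counts in CTRL and 9, 18 and 17 in FOXC1 KO. Every FOXC1 KO library thus held more reads than any CTRL library, and the fitted log2FC was 3.14 ± 0.516 (SE, adjusted p = 2.35e-05), with an interval of 2.09 to 4.20. KCNT2, a sodium-activated channel, did not pass, with a log2FC of 0.27.

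Inward rectifiers were nearly silent, with 2 of 15 genes tested. KCNJ8 (Kir6.1), which forms the vascular type of ATP-sensitive (KATP) channel, had 4.95, 4.22 and 4.05 CPM in CTRL and 1.14, 2.02 and 1.78 CPM in FOXC1 KO. The highest FOXC1 KO library stayed under the lowest CTRL library by a wide margin, with a log2FC of -1.38 ± 0.180 (SE, adjusted p = 7.23e-07, edgeR) and an interval of -1.74 to -1.01. The gene (ENSG00000121361.3) spans chr12:21917889-21928534 on the minus strand of GRCh37. ABCC9, the sulfonylurea receptor that assembles with it and its near neighbour at chr12:21950323-22095477, had 264, 358 and 367 counts in CTRL and 70, 90 and 115 in FOXC1 KO (log2FC -1.74 ± 0.130, SE, adjusted p = 1.39e-11). Both subunits of this channel thus fell. The alternative subunits stayed near 0, KCNJ11 with at most 2 counts and ABCC8 with at most 3 counts in any library. KCNJ14 (Kir2.4) did not pass, with a log2FC of 0.44 (adjusted p = 0.145).

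The K2P leak channels split. KCNK2 (TREK-1), opened by stretch and polyunsaturated fatty acids, had 4.90, 4.79 and 4.32 CPM in CTRL and 1.09, 0.991 and 1.57 CPM in FOXC1 KO. This 3.81-fold difference was the steepest decrease of the tested channel genes, with a log2FC of -1.93 ± 0.183 (SE, adjusted p = 2.02e-09, edgeR) and an interval of -2.31 to -1.55. The gene (ENSG00000082482.9) spans chr1:215179118-215410433 on the plus strand of GRCh37. KCNK3 (TASK-1), closed by extracellular acid, had 0.535, 0.696 and 0.629 CPM in CTRL and 1.41, 2.30 and 2.12 CPM in FOXC1 KO. It rose by a log2FC of 1.66 ± 0.254 (SE, adjusted p = 8.69e-06). KCNK1, the most abundant K2P gene, had 17.8, 14.9 and 14.8 CPM in CTRL and 13.5, 11.1 and 12.0 CPM in FOXC1 KO. Its log2FC of -0.38 ± 0.105 (SE, adjusted p = 0.00605) sat on the fold threshold at 1.3-fold, and it dropped under that threshold without CTRL replicate 1 or KO replicate 2, within a range of -0.46 to -0.30 over the alternatives. KCNK6 (TWIK-2) had a log2FC of -0.20 and did not pass. Summed over the 15 K2P genes the level was 23.3 to 27.1 CPM in CTRL and 17.96 to 19.02 CPM in FOXC1 KO.

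Accessory subunits were led by KCNAB2, a cytoplasmic beta subunit with an oxidoreductase fold that binds Kv1 pores. It had 63.1, 52.5 and 56.4 CPM in CTRL and 41.0, 41.9 and 36.3 CPM in FOXC1 KO. The groups did not overlap and the log2FC was -0.53 ± 0.0838 (SE, adjusted p = 1.43e-05). Its exons overlap those of NPHP4 on the opposite strand, and the strand setting of the counting is not given in the sources used here. KCNAB1, the beta 1 subunit, went the other way at a far lower level, with 0.446, 0.655 and 0.511 CPM in CTRL and 0.978, 0.753 and 1.23 CPM in FOXC1 KO. Its log2FC of 0.86 ± 0.303 (SE, adjusted p = 0.0315) was lost without CTRL replicate 1 (adjusted p = 0.0941), CTRL replicate 3 (0.0903), KO replicate 1 (0.0604) or KO replicate 3 (0.197). The exons of KCNAB1 overlap those of ENSG00000272990 on the opposite strand. That gene had 0, 1 and 1 counts in CTRL and 3, 6 and 6 in FOXC1 KO. Of the 19 called genes 8 had such an exon overlap. Apart from NPHP4 and ENSG00000272990, the overlapping genes held at most 3 counts in any library. KCNAB3 did not pass, with a log2FC of 0.14. As given above, no Kv1 pore gene held over 5 counts in any library. KCNE5, a single-span subunit of the KCNE family, had a log2FC of 0.92 with an interval of 0.13 to 1.71 and an adjusted p of 0.0719.

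**Figure D5:**
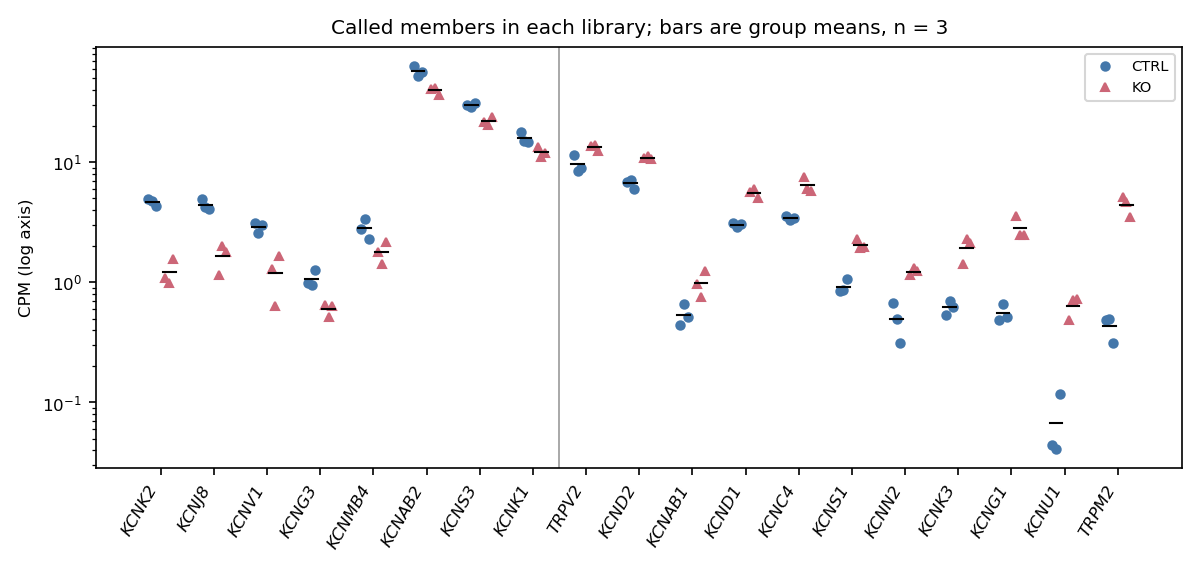
Level (CPM, log axis) of each of the 19 called member genes in each of the 3 CTRL and 3 FOXC1 KO libraries, 1 point per library. The 2 groups do not overlap in any of the 19 genes, which were called from these same libraries. Over all genes tested the groups do not overlap in 41.3%. The called genes span levels from KCNU1 under 1 CPM to KCNAB2 at 36.3 to 63.1 CPM.

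Near the fold threshold, KCNK1 at 1.3-fold, KCNS3 at 1.37-fold and TRPV2 at 1.39-fold were the last genes inside. PKD2 at 1.24-fold, MCOLN1 at 1.23-fold and TRPC1 at 1.2-fold were the nearest outside with an adjusted p under 0.05. By the adjusted p, KCNAB1 at 0.0315, KCNG3 at 0.0263 and KCNMB4 at 0.0128 were the last called genes, and TRPM7 at 0.0627 and KCNE5 at 0.0719 were among the first that did not pass.

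Some genes under the filter nevertheless held reads mainly in 1 group. KCNH8, the voltage-gated Kv12.1 channel, had 0, 0 and 1 counts in CTRL and 14, 8 and 15 in FOXC1 KO. Pooled over each group this was 1 against 37 counts, a depth-scaled ratio of 39.8 with an exact 95% counting interval of 6.72 to 1615. It was not tested because KO replicate 2, at 0.317 CPM, fell under the filter level of 0.419 CPM, and with no filter edgeR gave a log2FC of 4.86 (adjusted p = 4.01e-08). TRPA1, the irritant receptor of sensory neurons, had 4, 7 and 2 counts in CTRL and 12, 10 and 13 in FOXC1 KO (log2FC 1.51, adjusted p = 0.0172, without the filter). In the other direction, KCNJ3, a G-protein-gated inward rectifier, had 10, 11 and 7 counts in CTRL and 1, 2 and 2 in FOXC1 KO (log2FC -2.30, adjusted p = 0.00441, without the filter). TRPM3, a steroid- and heat-gated channel, had 6, 12 and 13 counts against 2, 3 and 4 (log2FC -1.64, adjusted p = 0.0244, without the filter). KCNH8 and the tested KCNU1 were the genes with at most 3 counts in every library of 1 group and a mean of at least 10 in the other, and TRPA1, KCNJ3 and TRPM3 were picked out after their values were seen. The cold receptor TRPM8 had 4 to 8 counts in CTRL and 5 to 7 in FOXC1 KO.

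Other genes of ion transport were read from 6 lists with 125 genes matched, of which 77 were tested, 11 fell and 6 rose (22.1%, against the 16.0% called among all genes tested). The counts of single lists below are small, and several shares are near or under that background. Of 5 tested TRP relatives 1 fell, MCOLN3 (log2FC -0.51), with a list median of 0.07. Of 21 tested genes of calcium entry, stores and extrusion 2 fell, the stretch channel PIEZO2 (-0.87) and the sodium-calcium exchanger SLC8A1 (-0.39), and 1 rose, the store calcium sensor STIM2 (0.43), with a median of -0.04. Of 17 tested voltage-gated calcium and sodium channel genes 3 fell, among them the sodium leak channel NALCN (-0.69) and the calcium channel subunit CACNB4 (-1.49). In that list 3 rose, the pacemaker channel HCN4 (1.97) and the calcium channel subunits CACNA2D3 (1.89) and CACNA2D1 (0.54), with a median of 0.01. Of 9 tested genes of the sodium-potassium pump and cation-chloride cotransport 2 fell, among them the cotransporter SLC12A2 (-0.59), and the pump regulator FXYD5 rose (0.57), with a median of 0.12. Of 16 tested chloride and volume-regulated channel genes CLCN4 (-0.58) and ANO5 (-0.52) fell and CLCN2 (0.49) rose, with a median of -0.19. Of 9 tested genes of ADP-ribose metabolism, which makes and breaks down the TRPM2 ligand, NMNAT2 fell (-0.51), with a median of 0.04. PARP1 (0.09), PARG (0.17) and the ADP-ribose hydrolase NUDT9 (-0.03) did not pass.

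The promoters of the genes were read from RefSeq on GRCh38.p14 as the 250 bases before an annotated start, which matched 86 of the 117 genes with 137 promoters. They are shown for the steepest increase and decrease among tested genes with an entry (TRPM2 and KCNK2) and for the KATP pore (KCNJ8). KCND1, an A-type channel that rose, and PKD2, the member with the highest mean TPM, are also shown. Each is given at its outermost start, 5′ to 3′ in the direction of the gene with every CG pair in capitals.
TRPM2 chr21:44349891-44350140, plus strand: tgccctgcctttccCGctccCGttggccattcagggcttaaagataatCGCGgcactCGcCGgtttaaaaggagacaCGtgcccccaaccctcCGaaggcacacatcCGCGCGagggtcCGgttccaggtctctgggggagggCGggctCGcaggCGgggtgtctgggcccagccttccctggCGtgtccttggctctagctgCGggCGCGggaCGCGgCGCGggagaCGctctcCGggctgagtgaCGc
KCNK2 chr1:215005292-215005541, plus strand: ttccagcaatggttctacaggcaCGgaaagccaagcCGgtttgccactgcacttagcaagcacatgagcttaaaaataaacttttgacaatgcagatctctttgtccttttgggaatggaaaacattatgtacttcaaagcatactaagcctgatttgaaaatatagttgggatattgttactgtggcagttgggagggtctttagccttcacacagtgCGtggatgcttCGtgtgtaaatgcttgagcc
KCNJ8 chr12:21774707-21774956, minus strand: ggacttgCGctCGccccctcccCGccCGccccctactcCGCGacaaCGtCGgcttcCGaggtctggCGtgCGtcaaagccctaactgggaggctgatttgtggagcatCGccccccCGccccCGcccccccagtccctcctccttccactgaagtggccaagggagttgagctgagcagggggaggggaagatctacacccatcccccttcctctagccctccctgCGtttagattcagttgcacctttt
KCND1 chrX:48971845-48972094, minus strand: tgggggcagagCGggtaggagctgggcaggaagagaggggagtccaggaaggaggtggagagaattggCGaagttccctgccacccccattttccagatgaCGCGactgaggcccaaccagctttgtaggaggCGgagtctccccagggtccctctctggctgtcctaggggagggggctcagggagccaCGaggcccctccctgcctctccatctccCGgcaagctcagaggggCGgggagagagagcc
PKD2 chr4:88007385-88007634, plus strand: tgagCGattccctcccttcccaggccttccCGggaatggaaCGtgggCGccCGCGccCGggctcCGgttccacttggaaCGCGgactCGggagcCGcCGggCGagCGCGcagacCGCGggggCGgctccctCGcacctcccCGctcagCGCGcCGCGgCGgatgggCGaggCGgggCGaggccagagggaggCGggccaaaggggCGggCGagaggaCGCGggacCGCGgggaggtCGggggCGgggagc
The TRPM2 sequence held 26 CG pairs and that of PKD2 38, while KCNJ8 held 15, KCND1 8 and KCNK2 4. TRPM2 has 3 starts in the table and KCNK2 has 2, and which of them J82 uses was not measured.

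Over all 35116 promoters in the table, and over the 137 of the channel genes, the median was 11 CG pairs. More than 11 were held by 48.5% of all promoters and 49.6% of those of the channel genes. The share was 59.0% of the 39 promoters of channel genes averaging 1 CPM or more and 30.4% of the 23 promoters of those at 0 counts. For the next shares each gene was counted once, by its promoter with the most CG pairs. Over all tested genes with a promoter, 26.6% of the 1608 with 11 or fewer CG pairs were called and 13.6% of the 9574 with more. These 2 groups also differed in level, with medians of 5.80 and 33.3 CPM, and the part of level was not tested. Among the tested channel genes the shares were 3 of 8 and 10 of 24. The forkhead core letters TAAACA, on either strand, stood in 10.99% of all promoters and in 8 of the 137 (5.84%). They stood in 0 of the 24 promoters of called channel genes. Those 24 belong to 6 genes called lower and 7 called higher, and some windows, as for KCNAB1, overlap. The other called genes had no promoter entry. The longer GTAAACA, which contains TAAACA, stood in 2.98% of all and 1.46% of the channel promoters. A match is only these letters in this window, and their absence says nothing of FOXC1 binding.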

How the data were processed

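RNA-seq of polyadenylated RNA had been made from 6 J82 libraries with the KAPA mRNA HyperPrep kit and paired reads of 75 bp. The deposited values were unscaled read counts for each gene, made by the authors with STAR on hg19 and featureCounts with GENCODE genes. Tool versions, strand and multimapping settings are not given in the sources used here, so counts of overlapping or near-identical genes are uncertain. Groups and replicate numbers came from the sample titles.

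Symbols were matched through GENCODE 44 lifted to GRCh37 (55538 of 57820 identifiers, 96.05%), so genes were chosen by current symbols, not those of the older GENCODE release. Genes passing filterByExpr (10 counts at the median library, 0.419 CPM) were normalized by TMM and compared with the quasi-likelihood F test of edgeR 4.0.16 in R 4.3.3, with Benjamini-Hochberg adjustment over all 15647 genes tested. A gene was called where the adjusted p was below 0.05 and the groups differed by more than 1.3-fold, the thresholds of the study's methods. The SE came from the F statistic and intervals are at 95%. CPM used TMM-scaled library sizes, and TPM used the length of the canonical transcript, with the summed exon length as an alternative chosen after seeing the data. The fit was tested on simulated data. Alternatives were DESeq2 1.42.0, which the study used, other scalings, filters and fold thresholds, thinning to the smallest library, a replicate block and leaving out each library.

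The named genes are all called members, those with an adjusted p under 0.05 alone, the 10 with the highest level, those present in 1 group only, the 3 nearest each side of a threshold, and up to 5 called genes of each other list. Members of every class not passing the test, subunit partners and low-count examples were added after values were seen. The channel genes and lists were chosen with earlier results of these data known. Library totals of 18408134 to 25350908 counts limit the genes under about 1 CPM most, and intervals on counts cover counting error only. Libraries of a group differed by more than sampling noise (chi-square per gene of 2.95 to 10.1). Same-numbered libraries did not deviate together, so the replicate numbers were not taken as pairs. ORAI1, ADPRHL2 and PECAM1 of the lists are not analysed here, and single results for a few other genes are not reported here.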

Additional observations from a re-analysis of the deposited data

How the results depend on the processing

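No value of a called channel gene changed direction in 238 values over the alternatives, and 223 of them kept an adjusted p under 0.05, although KCNK1 fell under the fold threshold in 4 of these. With a mean of at least 50 counts 8 of the 19 called genes could not be tested (KCNAB1, KCNG1, KCNG3, KCNK3, KCNN2, KCNS1, KCNU1 and KCNV1). KCNU1 could not be tested with thinned libraries either. At the 1.3-fold threshold 15 of the 19 kept their call in every alternative fit that tested them. The exceptions were KCNAB1, KCNG3, KCNMB4 and KCNK1. DESeq2 called 5 lower and lost those 4 genes (adjusted p = 0.175, 0.182 and 0.0832 for the first 3, and a fold change under the threshold for KCNK1). DESeq2 also called KCNH8 higher (log2 fold change 5.26, adjusted p = 0.00093). Without a filter KCNAB1 (adjusted p = 0.0524) and KCNG3 (0.0506) missed, as did KCNG3 with thinned libraries (0.0684). With a mean of at least 50 counts 5 were called higher, from fewer genes tested. Beyond a 2-fold change 3 were lower and 6 higher, and in the other ion transport lists 2 were lower and 2 higher, while with no fold threshold those lists held 17 lower and 16 higher. Leaving out 1 library gave 6 to 10 lower and 10 to 14 higher among the channel genes, and 8 to 12 lower and 6 to 8 higher in the lists. FOXC1 ranged from 0.25 to 0.35 on the log2 scale in those fits. PKD2 passed the fold threshold without CTRL replicate 1 (-0.39).

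Same-numbered libraries correlated at -0.04, -0.13 and 0.07 in their deviations from the group means. With the replicate block 7 channel genes were lower and 11 higher, KCNK1 being the one lost, and 1351 and 1200 of all genes. The median of the channel genes turned negative with a mean of at least 50 counts (-0.06) and with thinned libraries (-0.05), so no common direction can be read from it. Genes under about 1 CPM rest on few reads, and 8 tested channel genes were that low, 1 of them called lower and 3 higher.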

Other observations

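Noncoding genes named after a channel gene were read from the same fit, chosen after the values were seen. Of 25 such rows 13 were at 0 counts and 4 were tested. KCNMB2-AS1, antisense to the BK beta 2 subunit gene, had 83, 118 and 121 counts in CTRL and 35, 54 and 41 in FOXC1 KO. All FOXC1 KO libraries were lower, at a log2FC (log2 fold change) of -1.20 ± 0.167 (SE, adjusted p = 2.14e-06, edgeR). KCNQ1OT1, the imprinted antisense transcript of the KCNQ1 locus, was at 10.3 ± 1.97 CPM in CTRL and 12.6 ± 2.61 CPM in FOXC1 KO (SD, n = 3) and did not pass (log2FC 0.29, adjusted p = 0.109, edgeR). KCNJ5-AS1 (log2FC -0.19) and KCNH1-IT1 (0.02) did not pass either. Reads of a gene and of its antisense partner cannot be told apart where exons overlap, since the strand setting is not given in the sources used here.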
